A study of Mus musculus with 4 samples.

Results

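Cytosolic ribosomal protein genes were selected from the gene table of sorted lung macrophages by name: RPL or RPS followed by a number, with an optional closing A, X or L, plus RPLP0, RPLP1, RPLP2 and RPSA. The rule took 81 of the 27433 rows, 49 of them large subunit genes (RPL and RPLP names) and 32 small subunit genes (RPS names and RPSA). It used no expression value. Of the 81, 76 encode the proteins found in ribosomes of most tissues, 3 are paralogs (Rpl3l, Rpl39l and Rps27l) and 2 are annotated as pseudogenes (Rpl6l and Rps4l). Rows such as Rps3a1, Fau and Rack1, which also belong to the cytosolic ribosome, carry names outside the rule and are described apart.

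Macrophages that were CD11b+, Ly6G-, CD64+ and low in Siglec-F had been sorted from lung tumors of chimeric mice, 2 libraries to a group. The hosts of both groups were lethally irradiated mice with Cre-dependent tumor alleles, Lkb1fl/fl among them. They received bone marrow and then intranasal Ad-Cre, an adenovirus carrying the Cre recombinase, which removes Lkb1 in the lung cells it infects. Cells were taken 8 weeks after the virus. WTKL is the group with Tmem173fl/fl marrow, which carries no Cre of its own, and LYZKL the group with Tmem173fl/fl;Lyz2-Cre marrow, in which Cre sits in the lysozyme gene and is made in myeloid cells (macrophages, monocytes and neutrophils). Tmem173 encodes Sting, the receptor for the second messenger of cytosolic DNA sensing. Every Cre-carrying library is also one in which Tmem173 was to be deleted, so loss of Tmem173 and the Cre allele cannot be told apart. The labels leave unsaid whether the 2 libraries of each group represent separate mice. The p-values therefore measure the spread between these libraries, which may be technical.

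The cytosolic ribosome joins a large and a small subunit, each built from ribosomal RNA and single copies of most of its proteins. The small subunit reads the mRNA and the large subunit forms peptide bonds and holds the tunnel through which the new chain leaves. Vertebrate ribosomal protein mRNAs start with a C followed by a run of pyrimidines, the 5′ terminal oligopyrimidine (5′ TOP) motif, by which the mTORC1 kinase complex and the protein Larp1 control their translation. Their transcription follows the growth state of a cell, with Myc among the factors named for it, and the genes have left many processed pseudogenes in mammalian genomes.

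Start site windows of 6 members are shown to set the 5′ TOP letters beside the results: 5 hold a pyrimidine run at the annotated start (4 genes lower in LYZKL, and Rpl38, which was not), and Rps27l holds none. Each runs from 30 bases before to 20 bases from the RefSeq start, 5′ to 3′ on the gene's strand (GRCm38.p6). Capitals mark the run of C and T that begins with a C on the annotated first base and is at least 5 long. Rps21 and Rps27l each have another RefSeq start, not shown, with no such run. The windows lie at chr3:90213629-90213678 (minus strand) for Rps27, chr2:180257349-180257398 (plus) for Rps21, chr2:39005112-39005161 (minus) for Rpl35, chr4:86857348-86857397 (minus) for Rps6, chr11:114668550-114668599 (plus) for Rpl38 and chr9:66946056-66946105 (plus) for Rps27l.
Rps27: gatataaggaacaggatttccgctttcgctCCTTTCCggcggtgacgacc
Rps21: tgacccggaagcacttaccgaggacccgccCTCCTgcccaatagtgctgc
Rpl35: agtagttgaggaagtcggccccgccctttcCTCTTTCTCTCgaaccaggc
Rps6: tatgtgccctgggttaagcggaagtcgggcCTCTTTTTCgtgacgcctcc
Rpl38: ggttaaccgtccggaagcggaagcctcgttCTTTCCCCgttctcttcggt
Rps27l: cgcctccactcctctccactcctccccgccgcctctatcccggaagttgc

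The run was 11 bases long in Rpl35, 9 in Rps6, 8 in Rpl38, 7 in Rps27 and 5 in Rps21, and no run began on the first base in the Rps27l window. RefSeq start sites were found for 59 members, and 13 of them (22%) had such a run, against 3.01% of the 27025 genes with a start in the same table and 2.99% of the 8102 that were also tested here. An annotated start that is a few bases off hides the motif, and starts were not measured in these libraries. In the 300 bases from 250 before to 50 after the start, on either strand, CTTCCG (the core of the binding site of Ets factors) stood at 69.5% of the members and 36.9% of tested genes. CTCTTTC stood at 28.8% and 8.99%, and the TATA box letters TATAAA at 10.2% and 8.7%. The searches ran separately and matches may overlap. Members with and without a start run had nearly equal median log2 differences between the groups, -0.16 over 13 and -0.16 over 45.

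The libraries held 15466117 to 22867836 reads as implied by the deposited FPKM (fragments per kilobase of gene length, scaled to a fixed library size). The floxed gene Tmem173 (TMEM173 in the table) was at 15.4 and 15.2 FPKM in WTKL and 5.02 and 4.75 in LYZKL, a log2 difference of -1.47 (SE 0.06, limma adjusted p = 0.0452). Which exons are removed is not given in the sources used here, so reads outside them may remain. Why a part of the level remained in LYZKL was not tested. Macrophage markers were present in all 4 libraries, with Cd68 at 367 to 386 and Adgre1 at 56.0 to 58.7 FPKM, and Ly6g was under 1 FPKM throughout. Lyz2, the gene that carries Cre, was at 9560.2 and 10232.2 FPKM in WTKL and 2614.2 and 3650.4 in LYZKL. The 10 most abundant genes of each library took 15.0% and 16.2% of the summed FPKM in WTKL and 12.5% and 12.8% in LYZKL.

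Ribosomal protein mRNAs were lower in LYZKL as a family. Summed over the large subunit genes, the level was 12429.9 and 12225.1 FPKM in WTKL and 10520.4 and 11175.8 in LYZKL, so that the LYZKL mean was 88.0% of the WTKL mean. Small subunit genes summed to 6365.9 and 6120.2 FPKM in WTKL and 5396.5 and 5653.3 in LYZKL, or 88.5%. For both subunits the LYZKL libraries lay below both WTKL libraries. The nearest libraries of the 2 groups were 1049.3 FPKM apart for the large and 467 for the small subunit, against at most 655 and 257 between replicates. With 2 libraries against 2, an exact two-sided permutation test cannot go below 0.333, which is the value it gave for both sums. In bulk RNA, fewer cells with a high content of these mRNAs and less of them per cell cannot be told apart.

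**Figure D1:**
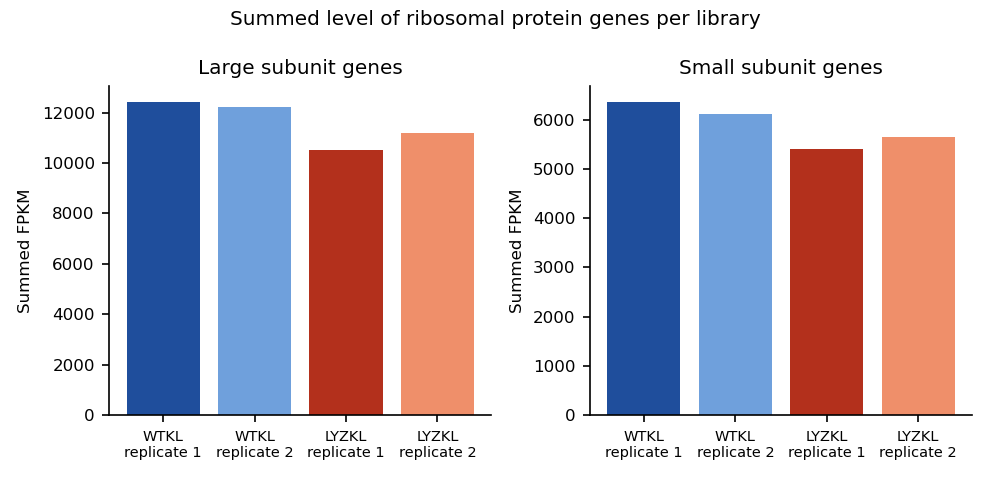
Summed FPKM of the 49 large (left) and 32 small (right) subunit genes, 1 bar per library, with axes from 0. Both LYZKL bars are lower than both WTKL bars for each subunit, and the large subunit sum is near 2 times the small subunit sum in every library.

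The 2 subunits kept their proportion. The ratio of the large to the small subunit sum was 1.95 and 2.00 in WTKL and 1.95 and 1.98 in LYZKL, with overlapping groups (exact two-sided permutation p = 0.667). Reads per coding length in place of the table's gene length gave higher ratios of 2.33 and 2.38 in WTKL and 2.32 and 2.36 in LYZKL, again overlapping. As a share of the whole table the family took 5.10% and 4.91% of the summed FPKM in WTKL and 4.38% and 4.62% in LYZKL. In reads, where long genes weigh more, the shares were 2.87% and 2.82% against 2.44% and 2.59%.

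Gene by gene, the difference was small and shared by most of the family. Of 80 members tested (all but Rpl39l, with a mean of at least 1 FPKM), 76 had a fitted log2 difference below 0, against 47.9% of all 12691 tested genes. In 70 of the 80, both LYZKL libraries lay below both WTKL libraries, where the background is 24.4%, and in 1 (Rps4l) both lay above, where it is 27.8%. The remaining 9 were Rpl36, Rpl38, Rpl3l, Rpl41, Rpl6l, Rps2, Rps27l, Rps28 and Rps3, whose groups overlapped. The median log2 difference was -0.16 (89.4% of the WTKL level), with quartiles of -0.20 and -0.12. The median of all tested genes was 0.01, with quartiles of -0.11 and 0.13.

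No single member passed the threshold of 0.05 on the adjusted p from limma, which 0.292% of all genes did, and the smallest adjusted p was 0.118 (Rps26). At an unadjusted p under 0.05, 36 members were lower and 0 higher, where the background is 7.85% lower and 10.9% higher. Run on reads rebuilt from the FPKM values, limma-voom called 10 members lower and 0 higher, against 3.48% and 5.65% of all genes. These 10 were Rpl12, Rpl19, Rpl21, Rpl23a, Rpl3, Rpl35, Rpl36a, Rps21, Rps26 and Rps27. Members share their libraries and move together, so the counts are not independent events.

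Large and small subunit genes did not part in their median difference. The median log2 difference was -0.16 over 48 large subunit genes and -0.17 over 32 small subunit genes, 0.005 apart, and leaving out 1 library at a time turned the sign of that gap (-0.015 to -0.002). Of the 48 large subunit genes, 43 (89.6%) lay lower without overlap and 18 (37.5%) were lower at an unadjusted limma p under 0.05. Of the 32 small subunit genes, 27 (84.4%) lay lower without overlap and 18 (56.2%) were lower at that p. The shares over all tested genes were 24.4% and 7.85%. Whether the subunits differ in these shares was not tested. Set library against library, the median member was -0.13 to -0.21 on the log2 scale in all 4 comparisons of a LYZKL with a WTKL library. It was -0.03 between the WTKL libraries (replicate 2 minus replicate 1) and 0.05 between the LYZKL libraries. LYZKL replicate 1 had the lowest sums of the 4 libraries and WTKL replicate 1 the highest.

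**Figure D2:**
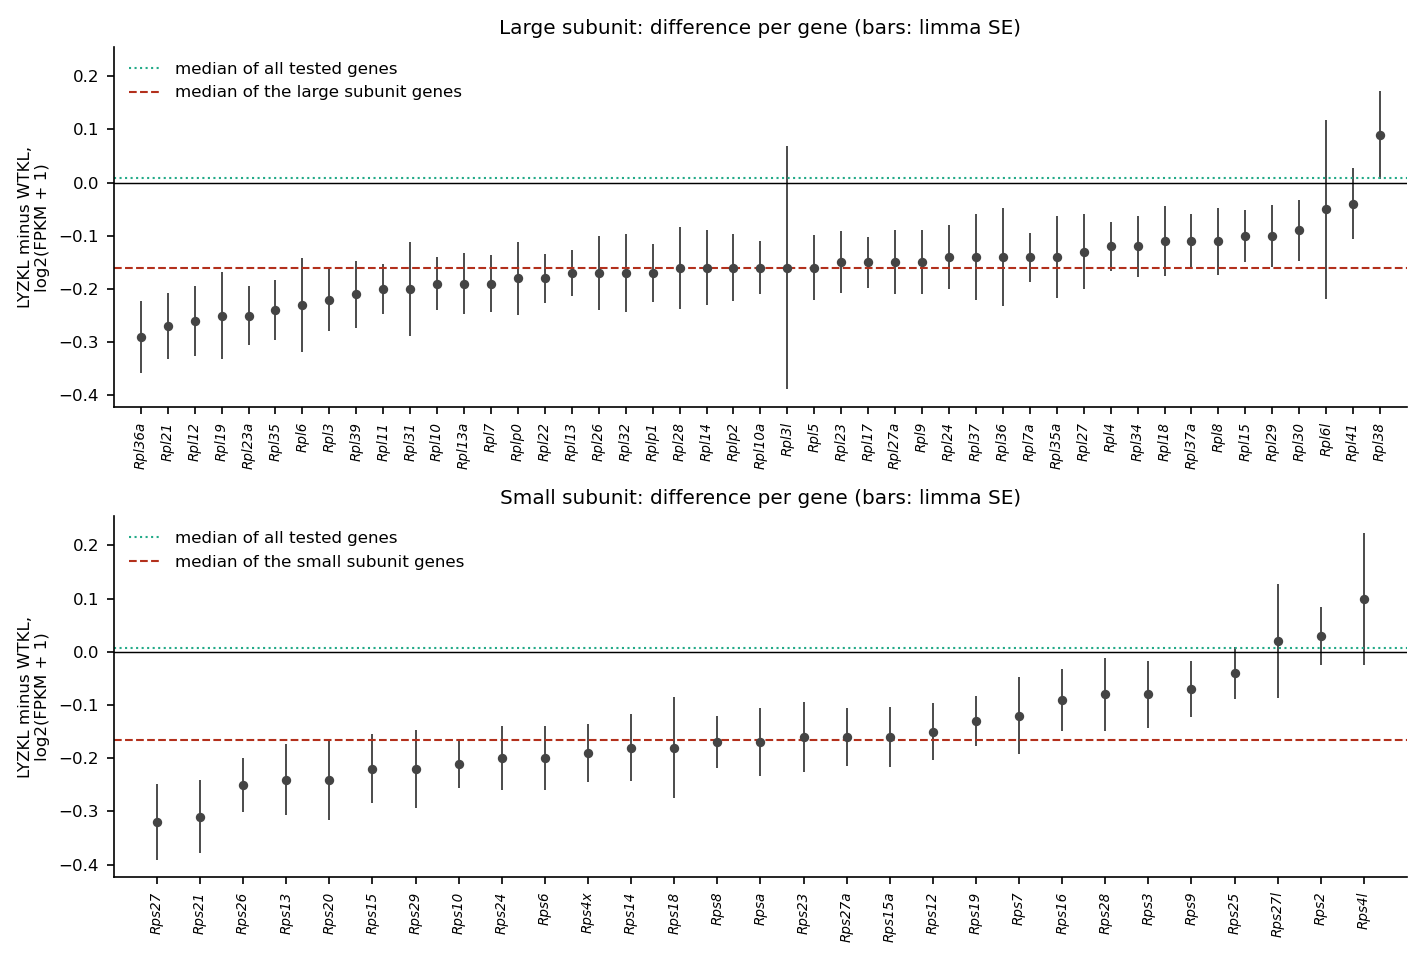
Fitted log2(FPKM + 1) difference, LYZKL minus WTKL, for 47 of the 48 tested large (top) and 29 of the 32 small (bottom) subunit genes, ordered by value, with the limma standard error. Dashed lines show the subunit medians near -0.16, the dotted line the median of all tested genes at 0.01; Rpl38, Rps27l, Rps2 and Rps4l lie above 0.

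Rps27, a zinc finger protein of the small subunit, had the lowest log2 difference. It was at 87.8 and 78.4 FPKM in WTKL and 67.2 and 65.1 in LYZKL, a log2 difference of -0.32 (SE 0.07, 95% interval -0.51 to -0.13, limma adjusted p = 0.135). Rps21 was at 199 and 191 against 149 and 165 FPKM, with a log2 difference of -0.31 (SE 0.07). Rps26 sits where the mRNA leaves the small subunit and can be released from ribosomes under stress in yeast. Its level was 249 and 262 FPKM in WTKL and 213 and 215 in LYZKL, a log2 difference of -0.25 (SE 0.05, 95% interval -0.39 to -0.11). All 3 lay lower without overlap, where the share is 70 of 80 in the family and 24.4% of all genes. They were among the members named for a small p.

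Several genes for proteins at the tunnel exit of the large subunit were abundant and lower in LYZKL. Rpl19, which reaches across to the small subunit, had the highest FPKM of the family. Its values were 1435.3 and 1400.5 FPKM in WTKL and 1120.2 and 1273.7 in LYZKL, a log2 difference of -0.25 (SE 0.08, 95% interval -0.47 to -0.02), which shrank to -0.11 with quantile scaling and to -0.16 without LYZKL replicate 1. Rpl23a, a docking site of the signal recognition particle at the exit, was at 1148.7 and 1109.7 FPKM in WTKL and 935 and 964 in LYZKL (log2 -0.25, SE 0.06, and -0.15 with quantile scaling). Rpl35, its neighbour at the exit, was at 494 and 506 against 411 and 437 FPKM (log2 -0.24). Rpl26, at the rim, was at 654 and 637 FPKM in WTKL and 547 and 603 in LYZKL (log2 -0.17, and -0.10 without LYZKL replicate 1). Of 8 genes for the tunnel and its rim (Rpl4, Rpl17, Rpl19, Rpl23a, Rpl26, Rpl31, Rpl35 and Rpl39), 8 lay lower without overlap, with log2 differences of -0.25 to -0.12, where the share is 70 of 80 in the family and 24.4% of all genes. These groups by place or role were made from textbook knowledge with the values already seen and carry no test.

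The stalk of the large subunit, which recruits elongation factors, consists of Rplp0, Rplp1 and Rplp2 on a base that holds Rpl12. All 4 lay lower without overlap, where the share is 70 of 80 in the family and 24.4% of all genes. Together they summed to 1046.6 and 1047.1 FPKM in WTKL and 894 and 953 in LYZKL. Rpl5 and Rpl11 ride with the 5S ribosomal RNA and, when free, bind the p53 regulator Mdm2. Rpl5 was at 431 and 434 FPKM in WTKL and 371 and 402 in LYZKL, and Rpl11 at 80.0 and 80.3 against 68.3 and 70.8. Their log2 differences were -0.16 and -0.20, close to the family median.

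Rps6, the ribosomal substrate of the S6 kinases downstream of mTORC1, was at 507 and 488 FPKM in WTKL and 417 and 446 in LYZKL (log2 -0.20, SE 0.06, limma adjusted p = 0.199). Rps10 and Rps20 are ubiquitylated on stalled ribosomes. Rps10 was at 67.5 and 68.2 against 58.1 and 58.7 FPKM (log2 -0.21, SE 0.05). Rps20 was at 30.6 and 27.7 against 25.5 and 23.7 FPKM (log2 -0.24). Rps2 and Rps3, which line the path of the entering mRNA and are ubiquitylated in the same setting, overlapped between the groups.

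Rpl38, the ribosomal protein known from the tail short mouse mutant and from control of Hox mRNA translation, was the one core large subunit gene with a log2 difference above 0. Its 4 values were 62.0 and 58.1 FPKM in WTKL and 68.5 and 60.1 in LYZKL, so the groups overlapped (log2 0.09, SE 0.08, 95% interval -0.13 to 0.32). Its start window holds an 8 base run, as the windows printed for Rps27, Rps21, Rpl35 and Rps6 hold runs; most members with a start site, lower or not, have none. The log2 difference of Rpl38 ran from 0.002 without LYZKL replicate 1 to 0.188 without LYZKL replicate 2. Rps2 was at 134 and 129 FPKM in WTKL and 138 and 131 in LYZKL (log2 0.03, 95% interval -0.11 to 0.18). Rps2 turned to -0.03 under quantile scaling and to 0.00 when libraries were scaled to the same sum without the family and the 10 most abundant other genes. Rpl41 (log2 -0.04, 95% interval -0.22 to 0.14) and Rps25 (log2 -0.04, 95% interval -0.18 to 0.09) were also near 0. Their intervals include the family median, so a difference of that size is not excluded for them. Rps25, at 38.7 and 37.9 FPKM in WTKL and 37.7 and 36.5 in LYZKL, is among the 70 members lower without overlap. Rps2 has 32 near copies among annotated transcript models (95% identity over at least 150 bases), nearly all annotated as pseudogenes.

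Levels within the family spanned 2 orders of magnitude in the deposited unit. Among the 76 core genes the mean ran from 12.8 FPKM (Rps15a) to 1307.4 (Rpl19), a 102-fold range, although most of these proteins are present once per ribosome. In the large subunit the highest were Rpl19, Rpl23a, Rpl6, Rpl26 and Rpl17 (551 to 1307.4 FPKM), and the lowest core genes were Rpl18 (16.8), Rpl35a (21.5) and Rpl37a (26.5). In the small subunit Rps24 (781), Rps23 (665) and Rps6 (465) were among the highest, and Rps15a and Rps20 (26.9) among the lowest core genes. The order held across libraries, with rank correlations of 0.997 to 0.999 between any 2 of the 4 over all 81 members, low paralogs and pseudogenes included. The members share the libraries and their length divisors, so the correlations describe how well the order repeats and no more. Rps24 stood above Rps23 in all 4 libraries, while Rpl17 (518 to 584 FPKM) and Rpl14 (489 to 590), neighbours in the order, traded places between libraries.

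**Figure D3:**
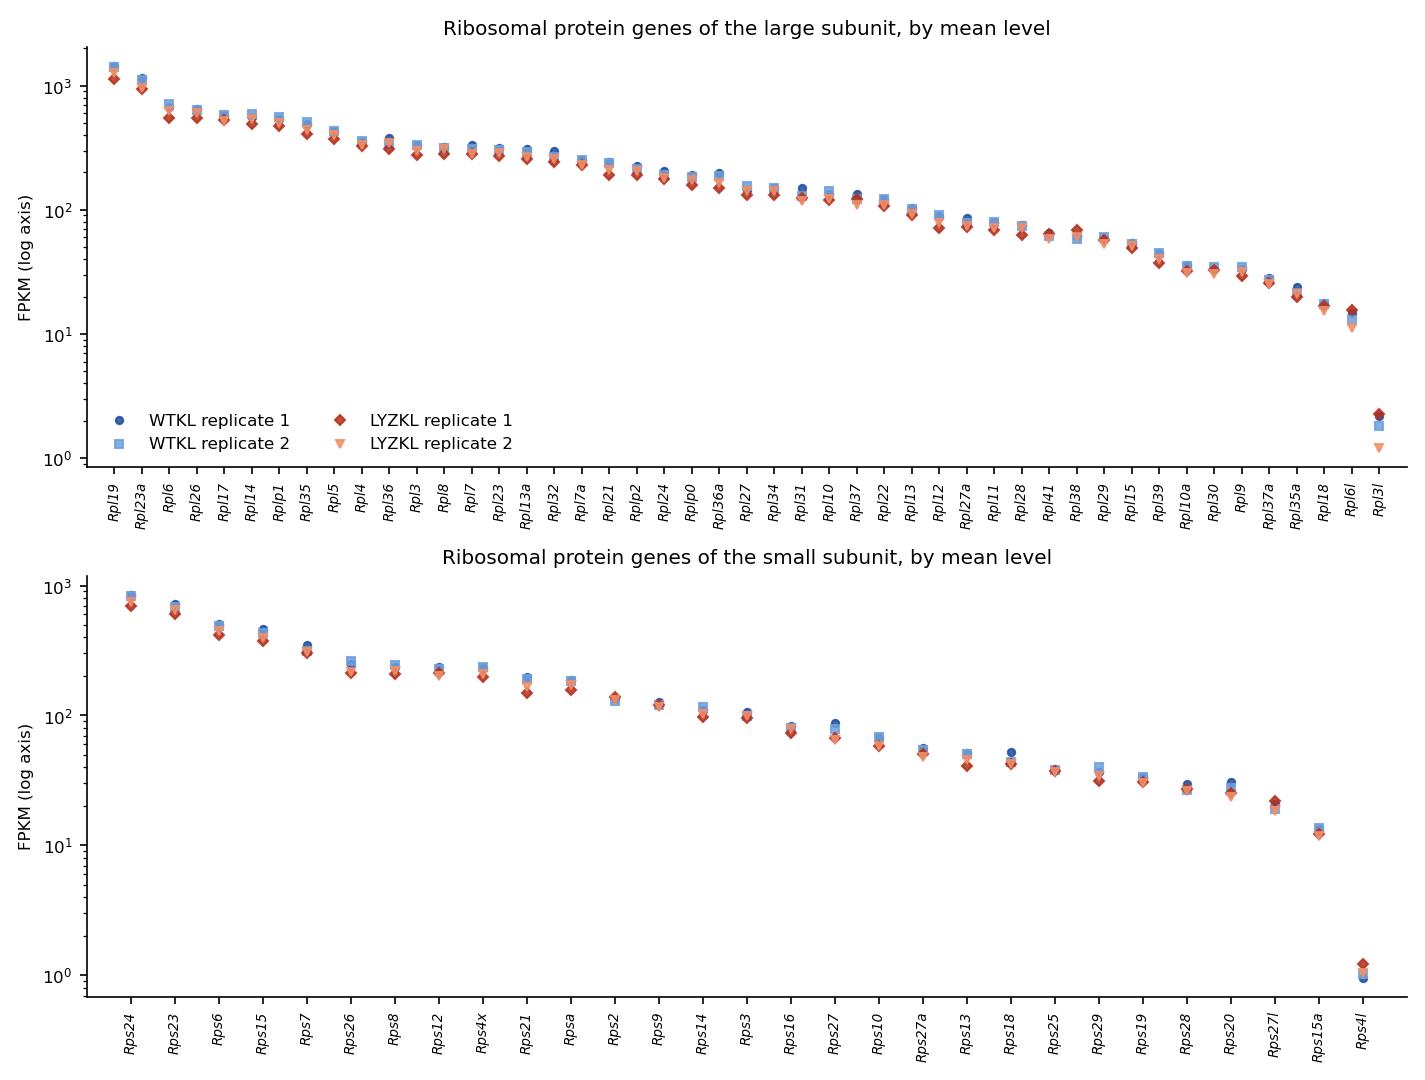
FPKM of 76 of the 80 members with a mean of at least 1 FPKM in each of the 4 libraries (log axis), large subunit above and small subunit below, ordered by mean. The symbols of 1 gene lie close together compared with the range between genes, from near 1 FPKM (Rps4l) to 1307.4 (Rpl19).

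A part of this range came with the length used as divisor. The FPKM values of 64 members were whole numbers of reads at the full length of the annotated exons, and those of the other 17 at a length found by search. That length includes untranslated and rarely used exons and ran from 404 bases (Rpl36) to 6270 (Rps15a). Rps15a, lowest by FPKM, carried 1263 to 1966 reads per library over a coding length of 390 bases. Counted as reads per coding kilobase on the same library scale, Rpl19 was again the highest (2272.4), and the ratio of the 90th to the 10th percentile of the core genes was 8.48, against 16.5 by FPKM. Among the core genes Rps15a stood at the 66th place by that measure and at the 76th by FPKM, and Rpl41, with a coding length of 75 bases, at the 18th and the 57th. Reads from untranslated exons are counted over the coding length here, so neither scale is exact.

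**Figure D4:**
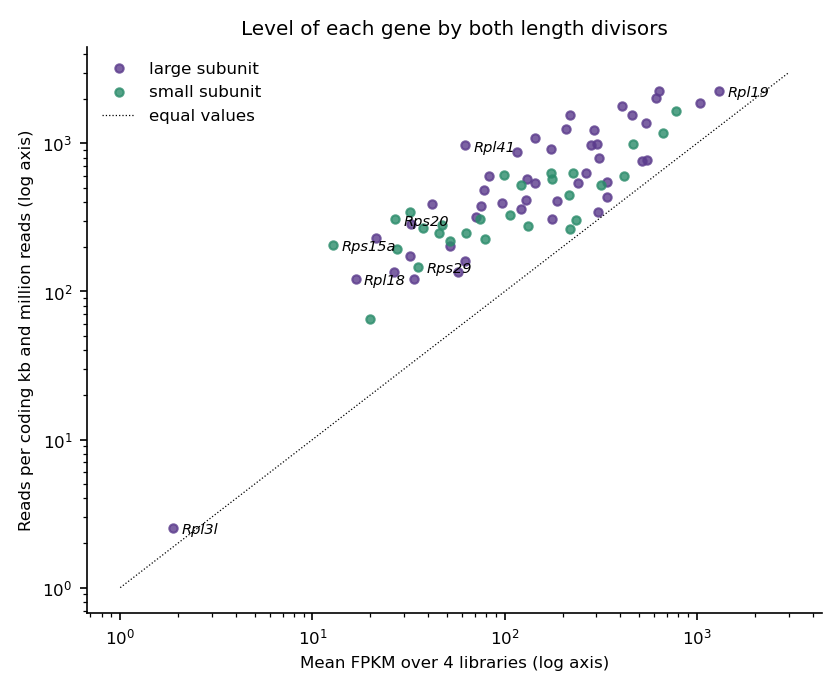
Mean FPKM (x) against reads per coding kilobase on the same library scale (y), both on log axes, for tested members with a coding sequence, large subunit in purple and small subunit in green. Points above the dotted line of equal values have a coding length shorter than the length used in the table; Rpl41 and Rps15a stand far above it.

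Paralogs with restricted expression were low. Rpl3l, the striated muscle form of Rpl3, was at 2.20 and 1.81 FPKM in WTKL and 2.29 and 1.20 in LYZKL, under 1% of Rpl3 in every library (0.400% to 0.828%). Rpl39l, a form of Rpl39 known from testis, had 0 reads in 3 libraries and 1 read in LYZKL replicate 1. A count of 0 allows up to 0.158 to 0.233 FPKM (3 reads, counting error only), where Rpl39 was at 37.0 to 45 FPKM. Rpl6l and Rps4l, the pseudogene models, reached 1.79% to 2.86% of Rpl6 and 0.417% to 0.623% of Rps4x. Rpl6l has 6 near copies among annotated transcript models, so its reads are uncertain. Rps4l was at 0.960 and 1.02 FPKM in WTKL and 1.22 and 1.04 in LYZKL (log2 0.10, SE 0.12).

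Rps27l, a p53 target that differs from Rps27 in few residues, overlapped between the groups. It was at 20.8 and 19.0 FPKM in WTKL and 22.0 and 18.4 in LYZKL, with a log2 difference of 0.02 (SE 0.11, 95% interval -0.27 to 0.31, which holds the family median). The difference turned below 0 under 1 other scaling (-0.02). As a percentage of Rps27 it stood at 23.7% and 24.2% in WTKL and 32.8% and 28.2% in LYZKL. Both LYZKL percentages were above both WTKL percentages. The difference between the pair was not tested.

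Reads of near copies touch most of the family. Of the 76 core genes, 74 have at least 1 other transcript model with 95% identity over at least 150 bases, 20 have 10 or more, and Rpl21 has 62. How the authors' counting treated reads with several positions is not given in the sources used here. The number of near copies bore little relation to the level (rank correlation 0.07 across these genes) or to the log2 difference (-0.10). Rpl21 was at 241 and 238 FPKM in WTKL and 190 and 208 in LYZKL (log2 -0.27, SE 0.06), with 10655 to 18527 reads per library, while the row of its pseudogene copy Rpl21-ps1 was higher in LYZKL. The 29 core genes that hold a snoRNA within their introns had a median log2 difference of -0.17, and the other 47 of -0.16.

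Other parts of the translation machinery were set beside the family. Counts of genes that lie lower or higher without overlap are to be read against 24.4% and 27.8% of all tested genes, whichever list they come from. Ribosomal protein rows outside the name rule had a median of -0.10 over 7 genes, with 5 lower without overlap and 0 higher. Rps3a1 was at 535 and 524 FPKM in WTKL and 466 and 484 in LYZKL (log2 -0.16). Fau, whose product yields the small subunit protein eS30, was at 873 and 859 against 810 and 856 (log2 -0.06). Elongation factors and other genes with 5′ TOP mRNAs were lower without overlap in 11 of 13 (background 24.4%), with a median of -0.12. Eef1a1, which brings aminoacyl-tRNA to the ribosome, was at 1228.9 and 1227.4 FPKM in WTKL and 1048.6 and 1076.8 in LYZKL (log2 -0.21, SE 0.05, limma adjusted p = 0.160).

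Mitochondrial ribosomal proteins, which serve the organelle and are encoded in the nucleus, had a median of 0.02 over 78 genes, with 15 lower and 17 higher without overlap, neither above the background share (24.4% and 27.8%). The smallest p in that list belonged to Mrpl52, at 42.1 and 41.8 FPKM in WTKL and 60.3 and 59.0 in LYZKL (log2 0.50, limma adjusted p = 0.0606). Initiation factors had a median of -0.03 over 33 genes, with 10 lower and 5 higher without overlap. Eif1, which guards start codon choice, was at 80.5 and 78.5 against 105 and 94.8 FPKM (log2 0.32, limma adjusted p = 0.121). Ribosome biogenesis genes had a median of -0.04 over 30, with 11 lower and 3 higher, and RNA polymerase I genes of -0.03 over 9, with 2 lower and 1 higher. Gnl3, a nucleolar GTPase, was at 42.9 and 42.2 FPKM in WTKL and 36.3 and 37.7 in LYZKL (log2 -0.20).

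SnoRNA host genes, several of which also make 5′ TOP RNAs, had a median of -0.21 over 9, with 5 lower and 1 higher. Snhg5 was at 14.9 and 14.5 FPKM in WTKL and 11.1 and 11 in LYZKL (log2 -0.38, SE 0.06, limma adjusted p = 0.0778), whereas Gas5 was at 34.5 and 29.3 against 32.3 and 31.6. Regulators of mTORC1 and ribosome production had a median of 0.02 over 14, with 3 lower and 4 higher. Myc was at 4.76 and 4.81 FPKM in WTKL and 4.41 and 4.62 in LYZKL, Larp1 at 28.3 and 28.1 against 26.2 and 25.4. Eif4ebp1, an mTORC1 substrate, was at 16.5 and 17.5 against 21.1 and 20.9 FPKM (log2 0.29, limma adjusted p = 0.115). No gene of these lists passed the adjusted threshold with limma, as 0.292% of all genes did. The limma-voom fit called Mrpl52, Mrps15, Eif1 and Eif4ebp1 higher (adjusted p = 0.00149, 0.00998, 0.0123 and 0.0411) and Snhg5 and Eef1a1 lower (0.0249 and 0.0341). Over all genes it called 5.65% higher and 3.48% lower.

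**Figure D5:**
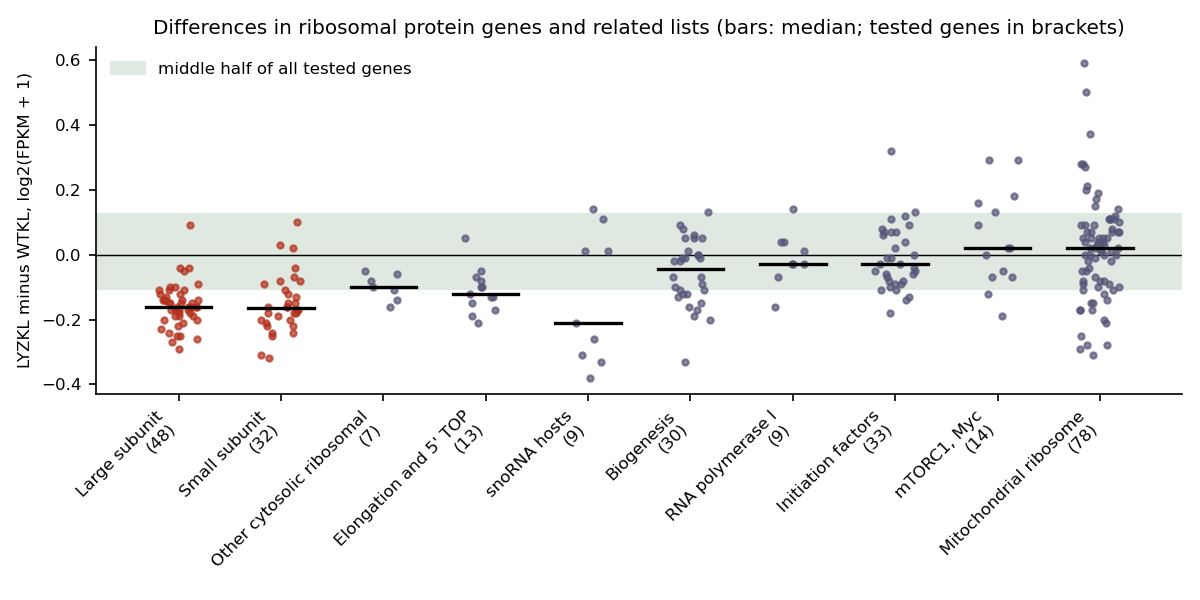
Log2(FPKM + 1) difference, LYZKL minus WTKL, of each tested gene of the large and small subunit lists (red) and of related lists (grey-blue), with medians as black bars and the range between the quartiles of all tested genes shaded. Medians of both subunits lie near -0.16, and those of initiation factors and mitochondrial ribosomal proteins within 0.03 of 0.

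Markers of other cells also differed in level between the groups. All 6 tested of 8 neutrophil markers were higher in both LYZKL libraries (background 27.8%). With limma 0 passed the threshold (smallest adjusted p = 0.0615), and limma-voom called 6 higher (background 5.65%). The 8 summed to 2322.2 and 1788.2 FPKM in WTKL and 5438.5 and 3521.3 in LYZKL, with S100a9 giving most of the sum. Among the 6, Cxcr2 was at 21 and 19.7 FPKM in WTKL and 63.4 and 48.3 in LYZKL. Csf3r was at 66.7 and 57.7 against 155 and 120 FPKM. Ly6g and Mpo, too low to be tested, were under 1 FPKM in every library. Of 9 tested T and NK cell markers, 9 were lower in both LYZKL libraries (background 24.4%). With limma 0 passed the threshold (smallest adjusted p = 0.0641), and limma-voom called 6 lower (background 3.48%). The 10 listed summed to 96.6 and 90.6 FPKM in WTKL and 53.2 and 67.5 in LYZKL. The 9 macrophage markers found in the table had a median log2 difference of -0.14, and Csf1r (94.3 to 101 FPKM) and Mertk (55.1 to 63.6) overlapped between the groups. B cell and plasma cell markers summed to 12.5 to 19.3 FPKM, dendritic ones to 8.05 to 11.7, epithelial ones to 34.1 to 41.2 and endothelial and stromal ones to 7.17 to 7.65 over the 4 libraries. None of the listed markers was at 0 in all 4 libraries. LYZKL replicate 1, with the highest neutrophil sum, also had the lowest ribosomal protein sums. The part of these cells in the lower ribosomal protein level was not tested.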

How the data were processed

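Bulk RNA was measured in 4 libraries of sorted mouse macrophages, 2 WTKL and 2 LYZKL. The authors deposited 1 table of FPKM values per gene name. HISAT2 2.0.5 and featureCounts 2.0.0 on mm10 are named in the submitters' processing notes, without roles, and paired 150 bp reads from a non-directional second-strand kit are given per the labels' protocols. Members and lists were chosen with earlier results of these data known. From the deposited FPKM, log2(FPKM + 1) was fitted with limma 3.58.1 in R 4.3.3 (mean-variance trend, 12691 rows with a mean of at least 1 FPKM, Benjamini-Hochberg over them, two-sided, threshold 0.05, 2 residual degrees of freedom), and the fit was tested on simulated data. Fold changes on this scale understate those of low genes. Reads were rebuilt from FPKM, library totals and GENCODE M21 exon lengths. They came out whole for 99.88% of tested rows, within 0.05 reads at the annotated length or 0.003 at a searched length, and limma-voom was run on them as an alternative. Counting error of core members was 0.445% to 5.28% of their reads per library. Some items, 4 members among them, are not reported here by name or drawn singly. Near copies were found with blastn 2.17.0 among GENCODE M21 transcripts, so copies without an annotation were not counted. RefSeq gave start windows for 59 of 81 members. Named members were the 5 highest and 5 lowest by mean in each subunit, the 4 of smallest p on either side, those under 1 FPKM, and names ending in L or X with their partners; from related lists, the 2 of smallest p and the most abundant; members named for a role, the overlapping ones and Larp1, Myc, Gas5 and Fau were added with values seen.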

Additional observations from a re-analysis of the deposited data

How the results depend on the processing

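In the alternatives run, the family median stayed below 0 and no member was called, except by limma-voom on rebuilt reads (10 members). Calls over all genes, 37 in the fit reported, were 340 with a minimum mean of 5 FPKM, 1159 by limma-voom, and 0 without the filter, without the trend, with any 1 library left out, or with the replicate block. Under the replicate block 41 members had an unadjusted p under 0.05, all lower, and the smallest adjusted p was 0.119. The labels do not say that equal replicate numbers mark a shared mouse or day. Deviations from group means correlated at 0.16, 1 value for both pairs since 2 libraries deviate by equal and opposite amounts, which does not settle whether the numbers pair the libraries. Scaling moved the medians of all, large and small subunit genes from -0.162, -0.161 and -0.166 to -0.134, -0.134 and -0.137 with equal sums, to -0.20, -0.198 and -0.204 with equal sums computed without the family and the 10 most abundant other genes, and, for all members, to -0.188 with quantile scaling; the median of all genes moved from 0.008 to between -0.023 and 0.033. The gap between subunit medians was 0.011 with a pseudocount of 5. Leaving out 1 library at a time gave -0.192 to -0.140 for all, -0.199 to -0.142 for large and -0.183 to -0.133 for small subunit genes, -0.015 to -0.002 for the gap, and between 5 members (WTKL replicate 1 left out) and 39 (LYZKL replicate 2 left out) at an unadjusted p under 0.05, against 36, with 10 when WTKL replicate 2 was dropped and 12 when LYZKL replicate 1 was. Signs turned for Rps2 (-0.032 with quantile scaling, -0.003 with equal sums without the family, -0.003 to 0.072 on leaving out 1 library), Rps27l (-0.016 with equal sums without the family, -0.104 to 0.145 on leaving out 1 library), Rpl6l (-0.273 to 0.166) and Rpl3l (-0.450 to 0.134), the last 2 on leaving out 1 library. The cause was not tested. With 2 libraries a group, the 95% interval of a member's log2 difference extended 0.12 to 0.62 to either side, and 36 of the 80 intervals lay wholly below 0, none of them past the adjusted threshold. The length divisor drops out of a comparison between groups, and the large to small ratio of reads per coding length, chosen after seeing the data, gave 99.3% of the WTKL ratio in LYZKL against 99.4%.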

Other observations

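Rows named as ribosomal protein pseudogenes (181, of which 64 had a mean of at least 1 FPKM) had a median log2 difference of -0.10. Of the 64, 21 were lower and 9 higher without overlap, against 24.4% and 27.8% of all tested genes. One of them went far the other way and was picked out after its values were seen. Rpl21-ps1, on chromosome 1 from 184617248 to 184617727 (plus strand, GRCm38), was at 5.66 and 7.93 FPKM in WTKL and 29.1 and 27.2 in LYZKL, or 42 and 87 against 230 and 239 rebuilt reads. The log2 difference was 1.92 (SE 0.16, limma adjusted p = 0.052, limma-voom adjusted p = 0.000166). It lies inside Gm37800, a gene model on the minus strand from 184610280 to 184629473, whose row was at 3.25 and 4.13 FPKM in WTKL and 9.47 and 8.72 in LYZKL. The libraries carry no strand, so reads of the pseudogene and of the gene around it cannot be told apart.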
